A study of Rattus norvegicus with 6 samples.

Results

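The genes described here encode the subunits of the receptors for glutamate, GABA and glycine, measured in rat neuronal progenitor cells given corticosterone, the main glucocorticoid of rodents. The families were chosen with earlier results of these data known, and their members were then taken by gene symbol. A member is every probe set (the group of short probes that stands for 1 transcript region) whose single symbol on the array annotation begins with Gria, Grik, Grin or Grid (ionotropic glutamate receptors), Grm (metabotropic glutamate receptors), Gabra, Gabrb, Gabrg, Gabrd, Gabre or Gabrr (GABA-A receptors), Gabbr (GABA-B receptors), Glra or Glrb (glycine receptors). After Grin, Grid and Grm a digit had to follow. The rule found 75 of the 31099 probe sets on the array, and these stand for 44 of the 14217 genes that the annotation names singly. Other members of these families are not analysed here.

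The progenitors came from the cerebral cortex of rat embryos at E15.5 and were grown on fibronectin with 20 ng/ml bFGF, the mitogen basic fibroblast growth factor, in both groups. The control group received the solvent dimethyl sulfoxide (vehicle) and the other group 1 µM corticosterone, each for 48 h. Each of the 3 vehicle and 3 corticosterone RNAs filled 1 Affymetrix array, and every vehicle sample had a treated partner, which gave 3 couples. The labels give neither the sex or strain of the embryos nor whether the couples were separate cultures, so the p-values measure only the spread between these couples, which may be technical. Cells of the whole cortex were taken, and RNA of a mixed culture cannot tell fewer cells of a type apart from less RNA per cell.

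AMPA and kainate receptors are tetrameric cation channels that carry fast excitatory currents, NMDA receptors are calcium-permeable channels that also need glycine or D-serine, and the metabotropic receptors signal through G proteins. GABA-A and glycine receptors are chloride channels of the pentameric ligand-gated family, and GABA-B receptors are G protein-coupled dimers of Gabbr1 and Gabbr2. Dividing cortical progenitors are known to carry AMPA, kainate and GABA-A receptors before synapses form. Because chloride is high inside immature cells, GABA depolarises them.

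The 75 probe sets were mostly dim. A background signal of 22.8, set from 27 probe sets for bacterial transcripts, was exceeded on all 6 arrays by 28 of them (37.3%), against 66.6% of all probe sets. Another 41 exceeded it on some arrays and 6 on no array. Those 6 were both probe sets of Gabra6, and 1 each of Gabre, Gabrr1, Glra3 and Glrb. Probe sets in the dimmest 40% by mean, under a signal of about 63.6, were left out of the tests. That filter kept 22 receptor probe sets of 16 genes for testing and left 53 untested. The median array signal lay between 108 and 134, and Actb read 1.55 to 2.12 times as high at its 3′ end as at its 5′ end, a measure of RNA quality. Among the markers of the cultured cells, 10 of 10 neural progenitor genes were past the filter on low signals.

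**Figure D1:**
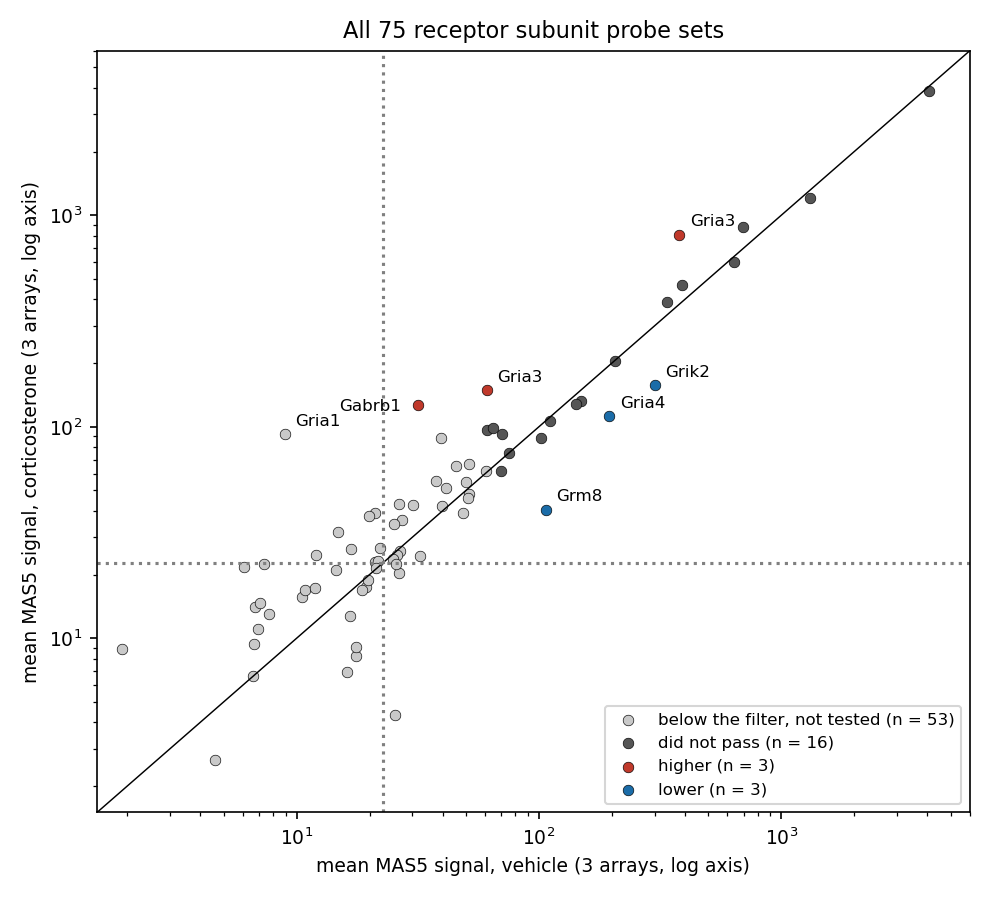
Mean MAS5 signal of each of the 75 receptor subunit probe sets on the 3 vehicle arrays (horizontal, log axis) and the 3 corticosterone arrays (vertical, log axis), with dotted lines at the background signal of 22.8 and a diagonal of equal signal. Most points lie below the filter (53, light grey), 3 tested ones are higher (red) and 3 lower (blue), and Gria1 stands apart among the untested ones.

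With corticosterone, 3 receptor probe sets rose and 3 fell at a limma adjusted p under 0.05, and 16 of the 22 tested did not pass. Over all 18625 probe sets tested 9.4% rose and 6.45% fell, 15.9% in both directions together. Centring each array on its median moved the median log2 fold change of all tested probe sets to −0.11 from −0.004. The whole-array split then turned from 1751 higher and 1202 lower to 1246 higher and 2846 lower. The receptor counts stayed at 3 and 3. At an unadjusted limma p under 0.05 the receptor counts went from 6 higher and 3 lower to 3 higher and 5 lower. By genes, with the brightest probe set standing for each, 2 of 16 rose (Gria3 and Gabrb1) and 3 fell (Gria4, Grik2 and Grm8), against 11.7% and 7.77% of 9910 genes (19.5% together). The 22 receptor probe sets had a median log2 fold change of 0.004. Of the 6 that passed, 3 (the brighter Gria3 set, Gria4 and Grik2) would have passed the filter on low signals with either group alone. The dimmer Gria3 set and Gabrb1 got past it through the corticosterone arrays, and Grm8 through the vehicle arrays, so their presence among the tested is tied to their difference.

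AMPA receptor genes held 3 of the 6 probe sets that passed and 6 of the 22 that were tested. Gria3, which encodes the GluA3 subunit, rose on both of its probe sets. The brighter of them (1376892_at) read 373, 352 and 412 for couples 1, 2 and 3 with vehicle, and 797, 969 and 662 on the corticosterone arrays. The treated arrays all lay above the vehicle ones. Such a gap was seen in 4 of the 22 receptor probe sets upwards and in 2 downwards, against 12.5% and 10.1% of all tested probe sets (22.6% together). The means were 379 ± 30.6 and 809 ± 154 (SD, n = 3; each mean below has the same n), which is 1.02 ± 0.13 on the log2 scale (SE, adjusted p = 0.00039 by limma). Fold changes here are differences of log2(signal + 28.6), which understate the change of dim genes. The second probe set (1368691_at) went from 70.4, 72.3 and 40.5 to 159, 182 and 107 (0.98 ± 0.18, adjusted p = 0.0032). Its groups did not overlap either, and its rise was of like size in each couple, at 0.92, 1.06 and 0.97. Only the dimmer one lost its call in limma without the couple as a term (adjusted p = 0.072).

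Gria1, the gene of the GluA1 subunit, was not tested because its vehicle signal was at background, and it is singled out here after its values were seen. Its 1 probe set read 4.34, 15.8 and 6.58 with vehicle, and 43.4, 143 and 90.0 with corticosterone. It was the 1 receptor probe set with every vehicle array at or under background and every treated array above it. Against the background signal the rise was at least 3.62-fold. In a limma fit of all 31042 probe sets without the filter on low signals, where 3.99% rose and 2.01% fell, its log2 fold change was 1.61 ± 0.24 (SE; adjusted p = 0.0092). In that fit it did not pass without couple 2 (adjusted p = 0.066), without the couple as a term (0.075) or without the intensity trend (0.11).

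Gria2, whose edited GluA2 product keeps AMPA channels impermeable to calcium, had 2 probe sets and passed with neither. The brighter read 3166, 4610.0 and 4426 with vehicle and 2881, 4141 and 4585 with corticosterone (log2 fold change −0.08 ± 0.07, SE, adjusted p by limma = 0.47). The 2 groups overlapped on both probe sets, and the other one had a log2 fold change of −0.13 (adjusted p = 0.30). Adarb1, the enzyme gene for the editing of Gria2 transcripts, did not pass either, at 330 ± 34.3 and 351 ± 91.0.

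The probe sets of Gria4 (GluA4) disagreed. The one that fell (1396696_at) read 258, 115 and 213 with vehicle and 105, 89.9 and 142 with corticosterone (log2 fold change −0.63 ± 0.18, SE, adjusted p by limma = 0.039). Its groups overlapped, since the vehicle array of couple 2 lay under the treated array of couple 3, and the call was lost without any 1 of the couples (adjusted p from 0.060 to 0.29). A second probe set (1383707_at) read 64.9, 79.1 and 50.4 against 108, 74.8 and 114, a log2 fold change of 0.45 that did not pass (adjusted p = 0.20). The remaining set lay below the filter at 51.3 with vehicle. Whether the sets measure different transcript forms was not tested.

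**Figure D2:**
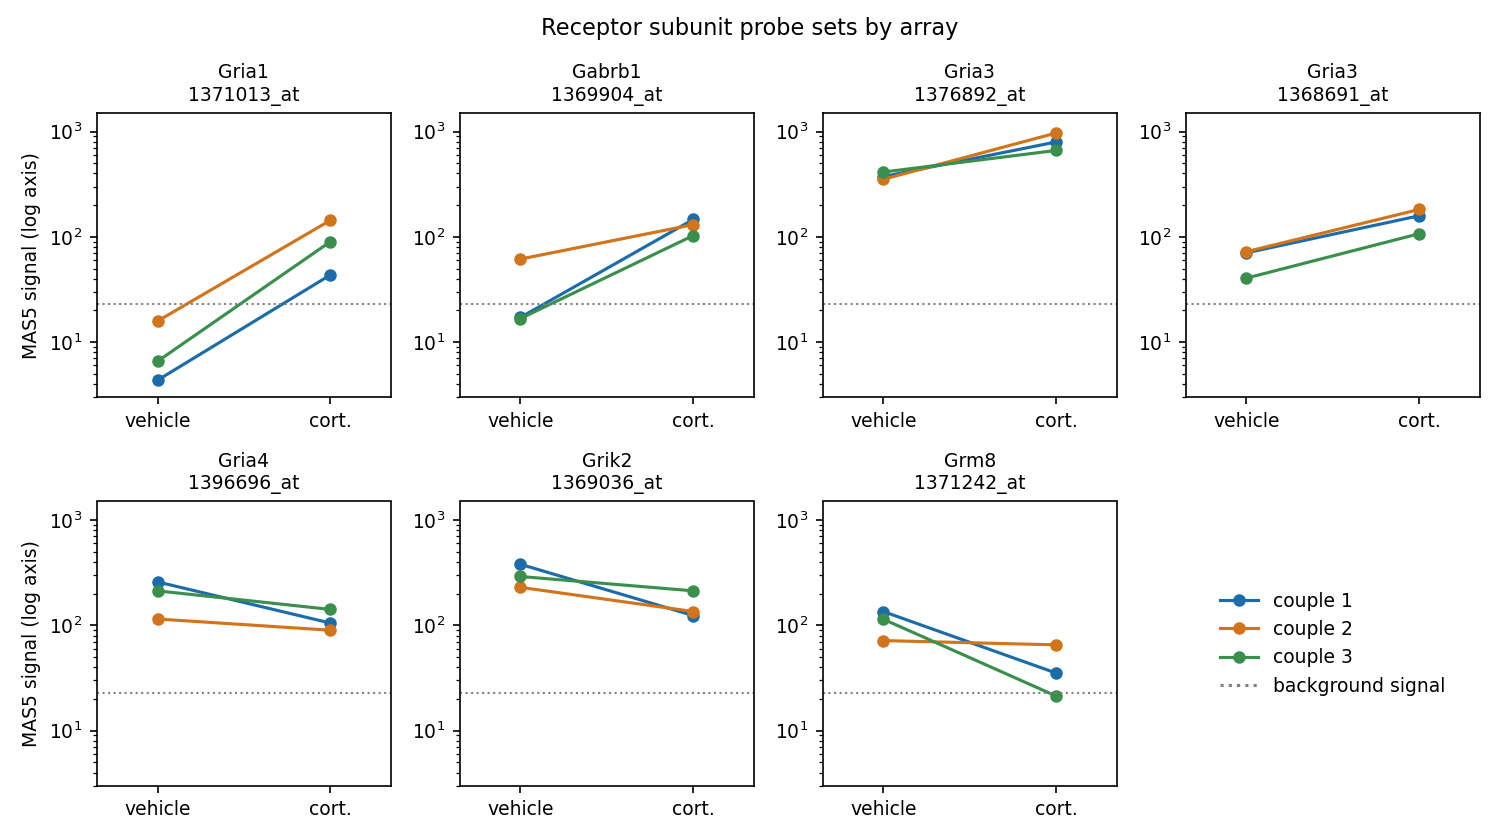
MAS5 signal (log axis) of the 6 receptor probe sets past the threshold and of Gria1, each line joining the vehicle and the corticosterone (cort.) array of a couple, with a dotted line at the background signal of 22.8. Every line of Gria1, Gabrb1 and Gria3 goes up and every line of Gria4, Grik2 and Grm8 goes down, with couple 2 the flattest for Gria4 and Grm8.

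Among kainate receptors Grik2, which encodes the GluK2 subunit, fell. Its signals were 379.9, 229.5 and 291 with vehicle and 124, 135 and 213 with corticosterone, so that every treated array lay below every vehicle array. The means were 300.1 ± 75.6 and 157 ± 48.3 (log2 fold change −0.83 ± 0.18, SE, adjusted p by limma = 0.011). It did not pass without couple 1 or 2 (adjusted p = 0.070 and 0.059). Grik5 (GluK5, which joins GluK2 in heteromers) went the other way in all 3 couples, by 0.21, 0.25 and 0.27, and did not pass (389.5 ± 94.6 and 469 ± 120, adjusted p = 0.13). Grik4 read 75.6 ± 37.9 and 75.4 ± 11.8, and Grik1 and Grik3 were too dim to be tested. Neto1, an auxiliary subunit of kainate and NMDA receptors, fell with signals of 186, 81.6 and 181 against 84.6, 47.5 and 112 (log2 fold change −0.68 ± 0.18, SE; adjusted p = 0.024). Its relative Neto2 did not pass (−0.15, adjusted p = 0.42).

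NMDA receptor genes gave little signal. Of their 13 probe sets 2 were tested, 1 each of the obligatory subunit Grin1 and of Grin2c, and neither passed. Grin1 read 83.5, 88.5 and 133 with vehicle and 59.9, 112 and 92.8 with corticosterone (log2 fold change −0.17 ± 0.20, SE, adjusted p by limma = 0.63). No NMDA probe set had groups that did not overlap. The 11 untested ones were those of Grin2a, Grin2b, Grin2d, Grin3a, Grin3b and a second Grin1 set. The 1 probe set of Grid1, a delta receptor gene, was untested too.

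Of the metabotropic receptor genes, Grm8 fell. This receptor of group III couples to inhibitory G proteins. Its probe set 1371242_at read 135, 71.6 and 114 with vehicle and 35.1, 65.2 and 21.3 with corticosterone (107 ± 32.3 and 40.6 ± 22.5, log2 fold change −0.99 ± 0.28, SE, adjusted p by limma = 0.032). The groups did not overlap, yet couple 2 moved by only −0.09 where couples 1 and 3 moved by −1.36 and −1.52. The call was lost without couple 3 (adjusted p = 0.14), the probe set fell below the filter without couple 1, and the other 2 Grm8 probe sets were too dim to be tested. Grm5, the group I receptor that raises intracellular calcium, read 66.8, 174 and 91.6 against 94.8, 105 and 120.5, with overlapping groups (0.03, adjusted p = 0.94). The remaining Grm genes (Grm2, Grm3, Grm4, Grm6 and Grm7) stayed below the filter.

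All 3 lower receptor calls were lost in limma without the couple as a term (adjusted p from 0.12 to 0.29) and without the intensity trend (from 0.076 to 0.11). They were also lost when every probe set was tested (from 0.058 to 0.13). Of the 8 tested markers of oligodendrocyte precursors 4 fell and 0 rose, against 7.77% lower and 11.7% higher among all tested genes. Over the 10 markers measured the summed signal lay from 26292 to 32580 with vehicle and from 21263 to 29066 with corticosterone. With vehicle Olig1 gave most of that sum, and no marker was at background on all arrays. Among the 10 markers Pdgfra, the receptor that defines these precursors, read 2892, 538 and 2970.2 against 633, 214 and 1000.0. On the vehicle array of couple 2 Pdgfra, C1ql1, Gria4 (1396696_at), Grik2, Grm8 and Neto1 each had their lowest of the 3 vehicle signals, while the marker Olig1 did not (16971, 18307 and 20049 for couples 1, 2 and 3). On the treated arrays couple 2 was lowest for Pdgfra, C1ql1 (66.8, 33.9 and 139), Gria4 and Neto1, but highest for Grm8 and in the middle for Grik2. Pdgfra, C1ql1 and Olig1 were singled out of the 10 markers after their values were seen, and the others are not given by array. Of receptor probe sets that did not pass, Glrb (1391092_at) and Gabrd (1395269_s_at) were also lowest on the vehicle array of couple 2. Gria2 (1368401_at) and Grik5 were highest on it. The share of all probe sets that were lowest on that array was not counted. Some meningeal markers were also highest in couple 2, as given with the processing. Neuron markers had 3 of 14 lower (Ina, Nefm and Tubb3) and 0 higher, with summed signals of 16244 to 17937 and 13820 to 16983. The part of these cell types in the receptor changes was not tested.

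In the GABA-A family 1 probe set rose. Gabrb1, the β1 subunit gene, read 17.2, 61.5 and 16.8 with vehicle and 146, 131 and 103 with corticosterone, and the lowest treated array lay above the highest vehicle array. Vehicle signals of couples 1 and 3 were under background and that of couple 2 was not. The log2 fold change was 1.43 ± 0.24 (SE, adjusted p by limma = 0.0024), and it passed under the alternatives in which it was tested. It lay just above the filter on low signals and fell below it, untested, with a pseudocount of 10, with the lowest 60% left out and without couple 2. Gabrd, the δ subunit of extrasynaptic receptors, read 72.7, 17.6 and 93.4 against 109, 86.8 and 93.8 and did not pass (0.59, adjusted p = 0.14). Its difference was largest in couple 2, with 1.32 there against 0.44 and 0.00 in couples 1 and 3. The vehicle signal of couple 2 was under background. Gabrg1 (γ1) read 148 ± 55.5 and 132 ± 43.6 (−0.12, adjusted p = 0.69). Probe sets for Gabra2 to Gabra6, Gabrb2, Gabre, Gabrg3 and the ρ subunits Gabrr1 to Gabrr3 were untested.

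Among the 53 untested probe sets, 6 had every treated array above every vehicle array and 1 had the reverse, against 9.89% and 2.92% of the 12417 untested probe sets of the whole array. Besides Gria1 these were Gabra2, Gabra4, and 1 probe set each of Gabrb2, Gabra6 and Glra3 above, and 1 Gabre set below. Gabra4, the α4 subunit gene, read 38.0, 57.1 and 23.4 with vehicle and 96.3, 89.4 and 78.6 with corticosterone. Gabra2 read 53.1, 44.7 and 38.5 against 54.6, 80.2 and 61.4. The sets of Gabra6 and Glra3 lay under background on all 6 arrays, where the order of signals carries no level. In the fit without the filter Gria1, Gabrb1 and both Gria3 sets passed, all higher, and no other of the 75 receptor probe sets did. Of all 31042 probe sets 3.99% rose and 2.01% fell in that fit.

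GABA-B and glycine receptor genes showed no call. Of the 5 Gabbr1 probe sets, the brightest read 609.5, 601 and 879 with vehicle and 702, 1013 and 925 with corticosterone (log2 fold change 0.33 ± 0.12, SE, adjusted p by limma = 0.086). It was higher in all 3 couples, by 0.73 in couple 2 and by 0.19 and 0.07 in the others, and it passed without couple 3 (adjusted p = 0.046). The other 2 tested Gabbr1 sets had log2 fold changes of 0.29 and 0.20 (adjusted p = 0.35 and 0.25). Gabbr2 read 142 ± 39.8 and 128 ± 27.9 (−0.11, adjusted p = 0.69). Glrb, the β subunit that anchors glycine receptors to gephyrin, read 743, 476 and 701 against 642, 545 and 609 on its brighter set (−0.07 ± 0.10, adjusted p = 0.71). None of the α subunit genes Glra1, Glra2 and Glra3 was bright enough to be tested.

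**Figure D3:**
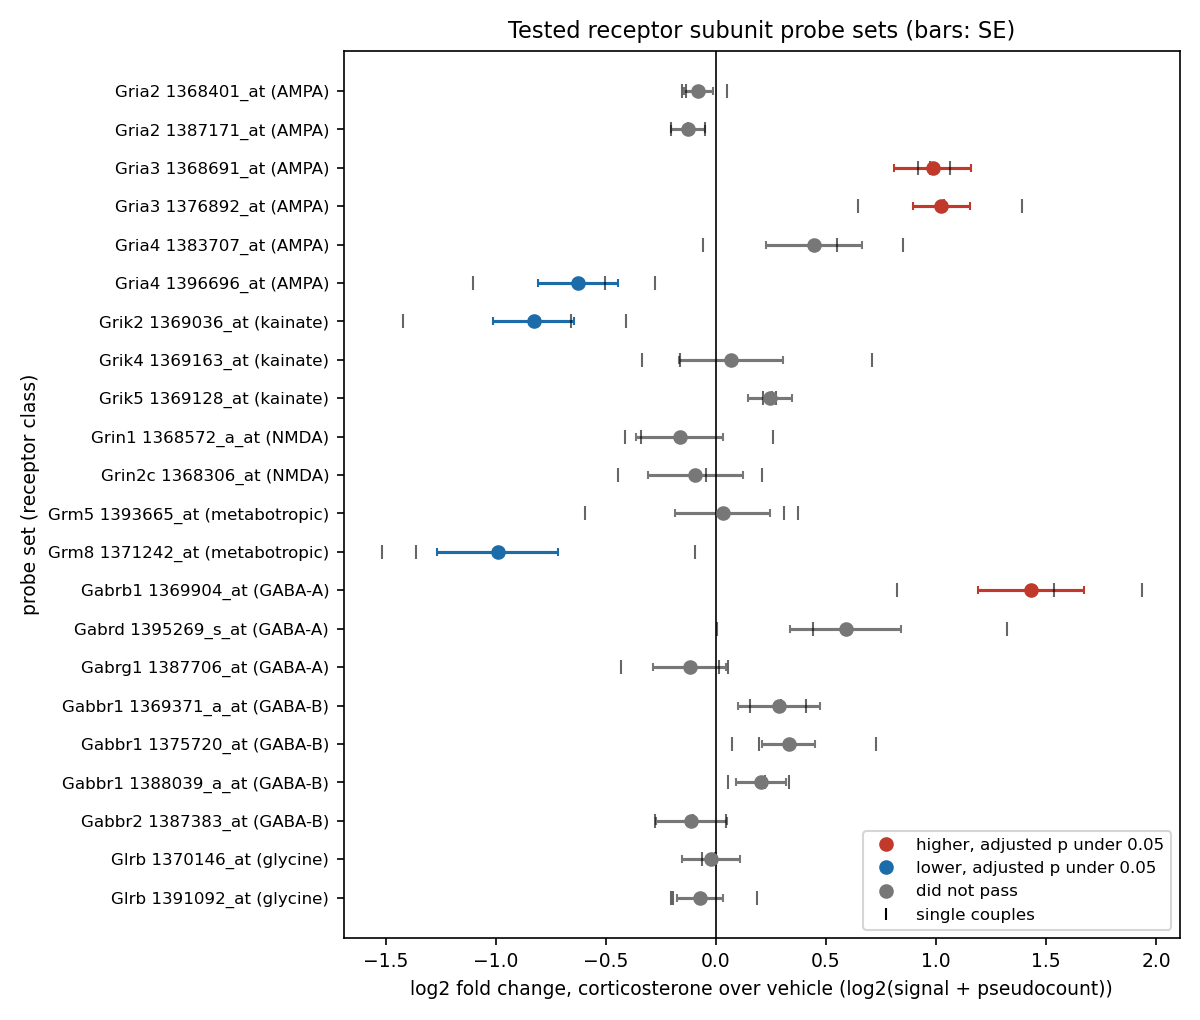
Log2 fold change (corticosterone over vehicle, on the log2(signal + 28.6) scale) of the 22 tested receptor probe sets by receptor class, with bars of 1 SE and ticks for the single couples. Gria3 and Gabrb1 are the 3 points called higher, and Gria4 (1396696_at), Grik2 and Grm8 the 3 called lower.

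Promoter windows of RefSeq (assembly GRCr8, 250 bases before to 50 after a gene's start) were matched by symbol for 32 of the 44 genes, and the 4 genes past the threshold that matched are shown, 1 higher and 3 lower, so that the searched letters can be seen in place. The glucocorticoid response element, a palindrome of AGAACA and its reverse complement with any 3 bases between, was found on either strand in 0 of the 32 windows and in 0.0149% of all 33469 windows. A looser form of it that fixes fewer letters was in 0 of 32 and in 0.439% of all. The single repeat unit AGAACA, which the palindrome holds on both strands, was in 4 windows (12.5%: Gabre, Gabrr2, Grm7 and Grm8) against 20.7% of all. Capitals mark that unit as it reads on the opposite strand (TGTTCT), and a window without capitals does not hold it. These matches describe letters in a short window and say nothing of receptor binding.
Gabrb1, chr14:36902844-36903143, minus strand: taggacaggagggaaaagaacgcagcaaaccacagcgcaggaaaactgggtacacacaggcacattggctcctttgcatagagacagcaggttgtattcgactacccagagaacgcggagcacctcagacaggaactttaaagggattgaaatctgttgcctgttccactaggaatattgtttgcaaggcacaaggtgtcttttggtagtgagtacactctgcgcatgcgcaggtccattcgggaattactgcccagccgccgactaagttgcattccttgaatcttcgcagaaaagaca
Gria4, chr8:10319832-10320131, minus strand: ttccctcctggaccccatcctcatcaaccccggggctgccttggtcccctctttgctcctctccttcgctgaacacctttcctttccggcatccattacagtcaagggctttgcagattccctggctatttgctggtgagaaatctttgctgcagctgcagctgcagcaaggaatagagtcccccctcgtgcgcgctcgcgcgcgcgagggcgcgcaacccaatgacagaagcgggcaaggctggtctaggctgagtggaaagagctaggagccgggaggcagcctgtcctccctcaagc
Grik2, chr20:54415234-54415533, minus strand: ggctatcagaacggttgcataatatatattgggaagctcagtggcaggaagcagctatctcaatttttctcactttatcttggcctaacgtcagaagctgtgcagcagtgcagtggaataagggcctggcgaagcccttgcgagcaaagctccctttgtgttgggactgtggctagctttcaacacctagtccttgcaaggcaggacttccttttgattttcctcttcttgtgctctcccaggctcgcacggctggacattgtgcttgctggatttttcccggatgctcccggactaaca
Grm8, chr4:57687457-57687756, minus strand: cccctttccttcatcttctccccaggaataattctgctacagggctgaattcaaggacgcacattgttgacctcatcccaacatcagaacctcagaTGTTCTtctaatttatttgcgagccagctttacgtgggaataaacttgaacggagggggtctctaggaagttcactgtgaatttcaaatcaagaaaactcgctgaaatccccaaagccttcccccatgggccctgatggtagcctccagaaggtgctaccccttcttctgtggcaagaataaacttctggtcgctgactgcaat
The unit in the Grm8 window begins 154 bases before the gene's start, while the windows of Gabrb1, which rose, and of Gria4 and Grik2, which fell, hold none.

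Genes that work with these receptors were taken from 3 lists. Of 27 tested genes for scaffolds, auxiliary subunits and related postsynaptic proteins 2 rose, 3 fell and 22 did not pass, against 11.7% higher and 7.77% lower among all tested genes. The median log2 fold change of the list was −0.01, against −0.004 over all tested probe sets. Camk2a, the α subunit of the calcium/calmodulin-dependent kinase that phosphorylates AMPA receptors, read 97.8, 109 and 114 with vehicle and 231, 268 and 246 with corticosterone. Its groups lay well apart, with a log2 fold change of 1.03 ± 0.14 (SE, adjusted p by limma = 0.00071). Dlg3, the scaffold SAP102 of immature synapses, rose from 292 ± 35.7 to 459 ± 38.7 (0.61, adjusted p = 0.0042), while its other 2 tested probe sets did not pass. Besides Neto1 the scaffold partner Dlgap1 fell from 427 ± 110 to 279.7 ± 58.9 (−0.55, adjusted p = 0.0082), and 2 further probe sets of it fell by 1.19 and 1.16 on the log2 scale, while another did not pass (0.09). Nlgn2, the adhesion protein of inhibitory synapses, fell from 259.6 ± 59.3 to 162 ± 44.5 (−0.60, adjusted p = 0.011). Gphn, the gephyrin scaffold of GABA-A and glycine receptors, read 1262 ± 94.8 and 1023 ± 261 and did not pass (−0.32, adjusted p = 0.085). Without the couple as a term 0 of the 3 lower calls passed. Over the whole list 3 genes then lay lower by limma at an unadjusted p under 0.05, and Neto1 was not among them (unadjusted p = 0.061). Dlg3 and Nlgn2 did not pass without couple 2 (adjusted p = 0.054 and 0.11), Dlgap1 without couple 1 (0.059) and Neto1 without any 1 of the couples (from 0.052 to 0.16). With median centring 8 genes of the list were lower. That setting also raised the lower calls among all 18625 tested probe sets from 1202 to 2846.

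Of 14 tested genes for making, clearing and carrying the transmitters 5 rose, 4 fell and 5 did not pass (median log2 fold change 0.08). Of all tested genes 11.7% rose and 7.77% fell. Slc1a3, the glial glutamate transporter GLAST, read 10848, 14432 and 14637 with vehicle and 17384, 19279 and 19019.5 with corticosterone (0.49 ± 0.07, SE, adjusted p by limma = 0.00054). Every treated array lay above every vehicle array, and 2 further probe sets of it had log2 fold changes of 1.03 (adjusted p = 1.9e-05) and 0.07 (adjusted p = 0.76). Glul, the glutamine synthetase of astrocytes, rose from 3146 ± 367 to 4380.0 ± 327 (0.48, adjusted p = 0.0038), and Glud1, glutamate dehydrogenase, by 0.34 (adjusted p = 0.019). Abat, the transaminase that breaks down GABA, rose from 84.4 ± 22.1 to 188 ± 53.5 (0.93, adjusted p = 0.0026). Slc6a9, the glycine transporter GlyT1, rose by 0.33 (adjusted p = 0.023).

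The 4 that fell were led by Slc1a1, the glutamate and cysteine transporter EAAC1, with signals of 707, 472 and 824 against 271, 295 and 436 (log2 fold change −0.93 ± 0.13, SE, adjusted p by limma = 0.00064). Every treated array lay below every vehicle array. Slc1a4, a carrier of alanine, serine and cysteine, fell from 1044 ± 46.9 to 637 ± 74.0 (−0.69, adjusted p = 0.00081). Shmt2 and Shmt1, which interconvert serine and glycine, fell by 0.43 and 0.40 on the log2 scale (adjusted p = 0.0033 and 0.018). The GABA-synthesising enzymes Gad1 and Gad2 and the vesicular carriers Slc17a6, Slc17a7 and Slc32a1 were too dim to be tested. Glud1 and Slc6a9 did not pass with median centring (adjusted p = 0.066 and 0.10), nor without couple 1 or 2 (from 0.059 to 0.20). Shmt1 did not pass without couple 1 or 2 (0.081 and 0.17), nor Shmt2 without couple 2 (0.059). In limma without the couple as a term 0 of the 5 higher calls and 1 of the 4 lower ones (Slc1a4) passed. Over the whole list, called or not, an unadjusted p under 0.05 was then reached by 5 genes upwards and 4 downwards, and Slc6a9 was not among them (unadjusted p = 0.072). Without the intensity trend 1 and 2 passed. Astrocyte markers, which share Slc1a2 and Slc1a3 with this list, had 6 of 8 tested genes higher and 0 lower, and their summed signal over 12 genes went from 28613–38533 to 51050–59802. Most of that sum came from Slc1a3, Sparcl1 (11348 to 18332) and Gja1 (5668 to 10939). Gfap and Fgfr3 did not pass (limma adjusted p = 0.13 and 0.40), and Aldh1l1, Aqp4, Ntsr2 and Slc1a2 were untested. The part of astrocytes in these changes was not tested.

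**Figure D4:**
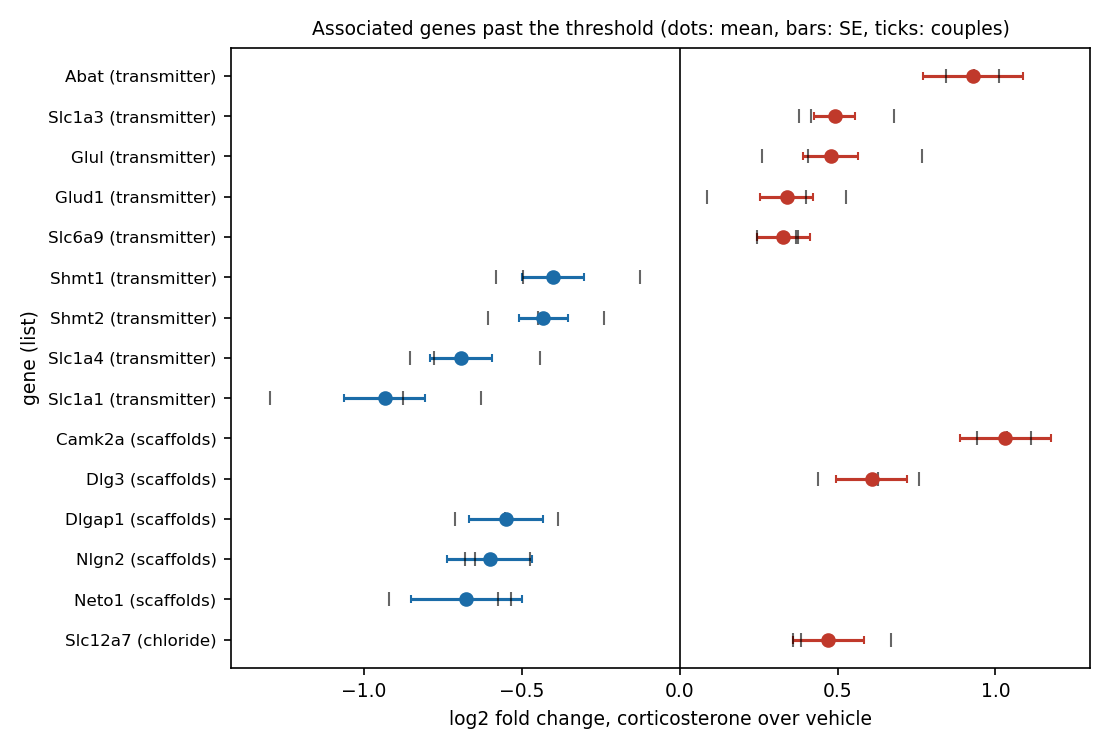
Log2 fold change of the 15 genes past the threshold in the lists of scaffolds and auxiliary subunits, transmitter enzymes and transporters, and chloride transporters (dots), with bars of 1 SE and ticks for the single couples. Camk2a and Abat are the highest of them, and Slc1a1 the lowest.

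The chloride gradient that sets the sign of GABA and glycine currents depends on cation-chloride cotransporters. Slc12a2 (NKCC1), which loads chloride into immature cells, read 4329.6, 4857 and 4209.9 with vehicle and 3943, 4424 and 3910.1 with corticosterone. It was lower in each couple by 0.11 to 0.13 and did not pass (log2 fold change −0.12, limma adjusted p = 0.18). Slc12a5 (KCC2), the neuronal chloride extruder, read 104 ± 24.9 and 123 ± 34.7 (0.19, adjusted p = 0.50). Slc12a7 (KCC4) rose from 324 ± 53.2 to 460.1 ± 73.0 (0.47, adjusted p = 0.016), the 1 call among the 4 tested (11.7% of all tested genes rose and 7.77% fell). It did not pass without couple 1 or 2 (adjusted p = 0.12 and 0.076).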

How the data were processed

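Signals of 6 arrays (3 vehicle, 3 corticosterone) were analysed. The deposited values are signal intensities per probe set on a linear scale, made by the authors with MAS5, per the submitters' processing notes. No source used here gives its version or settings. MAS5 subtracts a local background and sets mismatch against perfect-match probes, which leaves low signals noisy. Each array had a mean of 500.0 once 2% of its values were trimmed from either end, so the arrays had been scaled alike.

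After 57 control probe sets were left out, log2(signal + 28.6), with the 25th percentile of all values as pseudocount, entered a linear model in limma 3.58.1 under R 4.3.3 (variances moderated along signal strength by eBayes after lmFit) on the 18625 probe sets past the filter, with treatment and couple as terms. P-values are two-sided and adjusted by Benjamini-Hochberg over all of them (threshold 0.05). The fit was also run on data simulated with normal errors from its own variance model. Such data cannot show how it handles noisy low MAS5 signals. The design text of the series states that the samples form couples, and within couples the 2 arrays deviated together from their groups (r = 0.57, 0.52 and 0.35, across probe sets).

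Each probe set's gene was its 1 symbol in the platform annotation, and all 75 receptor entries were found in the gene table of GRCr8 with 0 symbols changed. The background signal is the 95th percentile of the bacterial controls. Named are the members past the threshold, the brightest of each class that did not pass and the called genes of the lists, plus genes singled out after their values were seen: Gria1, the untested probe sets whose groups do not overlap, and genes given for contrast. The members and lists were chosen with earlier results of these data known, and 1 probe set, the brightest, stands for a gene of a list. Of the marker lists not described above, that of meningeal cells had 3 of 5 tested genes higher and 0 lower, that of microglia 0 of 2 in either direction, and no endothelial gene was tested. Of all tested genes 11.7% rose and 7.77% fell. The meningeal markers Lum, Col3a1, Col1a1, Col1a2 and Fn1 were highest in couple 2 in both groups, while Rgs5, untested, was lowest there in both. The rest of that list, Acta2 among them, differed between the groups. For couples 1, 2 and 3 Lum, untested, read 0.5, 136 and 0.8 with vehicle and 2.7, 143 and 1.7 with corticosterone. Col3a1 read 40.8, 577 and 93.7 against 94.1, 928 and 61.9. Acta2 was instead lowest in couple 2 with vehicle, at 226, 159 and 223, but highest there with corticosterone, at 462, 551 and 331. Whether couple 2 held other cells was not tested. The progenitor list had 1 of 10 higher (Nes). With 6 arrays, their number limits the precision.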

Additional observations from a re-analysis of the deposited data

How the results depend on the processing

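Of 328 repeats of single results under another setting, 263 kept direction and side of the threshold, 59 lost the call, 1 gained it and 5 turned direction, and the cause was not tested. The 328 include repeats of results that had not passed as reported, which had no call to lose. They leave out settings in which a probe set fell below the filter. Receptor probe sets higher, 3 as reported, numbered 1 with the lowest 60% left out (7 receptor probe sets tested, without Gabrb1 and the dimmer Gria3 set) and 2 to 4 without 1 couple. Those lower, 3 as reported, numbered 0 in limma with every probe set tested (4 at an unadjusted p under 0.05), 0 without the couple as a block (3 unadjusted, and 2 higher by adjusted p), 0 without the intensity trend (3 unadjusted), and 0 to 1 without 1 couple. With the lowest 60% left out the 3 lower probe sets were below the filter, so the count of 0 there is no test of them. Other pseudocounts, quantile normalization, median centring and a robust variance prior left the lower count at 3.

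Over all probe sets, the counts higher were 362 without the replicate block, 960 without the trend and 785 to 1720 without 1 couple. The counts lower were 624 with every probe set tested, 2846 with median centring, 55 without the replicate block, 302 without the trend and 389 to 1094 without 1 couple. Unadjusted counts below are over the whole list, called or not. Scaffold genes higher numbered 1 with the lowest 60% left out and 1 without the block. Those lower numbered 1 with the lowest 60% left out, 8 with median centring, 0 without the block (3 unadjusted, limma) and 1 to 3 without 1 couple. With the lowest 60% left out Camk2a, Neto1 and Nlgn2 were not tested. Transmitter genes higher numbered 3 with median centring, 0 without the block (5 unadjusted, limma), 1 without the trend and 3 to 5 without 1 couple, and those lower 1 without the block, 2 without the trend and 2 to 4 without 1 couple. Chloride transporters higher numbered 0 without the block, 0 without the trend (1 unadjusted in each, limma) and 0 to 1 without 1 couple, and those lower 1 with median centring.

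Uncalled values that turned direction were Gabrg1, at 0.035 without couple 2 (−0.21 to 0.035 without 1 couple), and Grm5, at −0.088 with quantile normalization, −0.076 with median centring, −0.14 without couple 1 and −0.11 without couple 3 (−0.14 to 0.34 without 1 couple). The repeats of Gria1 and its listing were chosen after seeing the data. Signal over background is a limit of the receptor results: 47 of the 75 probe sets were at or under background on at least 1 array.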
